A study of Mus musculus with 27 samples.

Results

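Cytokine receptor genes were followed through blood cell development from mouse embryonic stem cells: Kit, Flt3, Epor, Csf1r, Csf2ra, Csf2rb, Csf3r, Il3ra and Il6st. They were found by matching the transcript accession that the array files give for each probe to gene symbols, which gave 9 genes with 13 probes, of 37208 genes or transcripts and 55681 probes on the array. The arrays measured RNA of cells differentiated in vitro from a stem cell line that carries a doxycycline (DOX)-inducible dominant-negative FOS peptide (dnFOS), which pairs with JUN proteins and keeps the AP-1 transcription factor from binding DNA. The study asked how blocking AP-1 changes the choice between the hematopoietic and the vascular smooth muscle fate. In all, 27 one-colour arrays covered 13 groups, with 2 arrays per group and 3 of untreated smooth muscle cells.

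The 6 later populations were compared with and without 1 µg/ml DOX, and their source was untreated. FLK1 stands for FLK1+ hemangioblast cells purified from embryoid bodies after 3.75 days. These cells were plated in blast culture, a medium with VEGF and IL-6, and sampled at 5 h (BC5h) and after 1 day (BC24h), with DOX for 5 h or 1 day in the treated groups. The later populations were sorted by flow cytometry from blast culture and had DOX for 2 days where treated: smooth muscle cells (SM), hemogenic endothelium 1 (HE1; KIT+ TIE2+ CD41-), hemogenic endothelium 2 (HE2; KIT+ TIE2+ CD41+) and hematopoietic progenitors (HP; KIT+ TIE2- CD41+). KIT protein was thus part of the gate of HE1, HE2 and HP. All cells of all groups carry the dnFOS cassette, inserted at the Hprt locus of a picked clone, and no cassette-free cells with DOX were on these arrays, so that effects of DOX and of dnFOS cannot be told apart. Labels do not say whether replicates were separate differentiations, so the p-values measure the spread between these samples, which may be technical.

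Hematopoietic cytokine receptors fall into a few classes. KIT, FLT3 and CSF1R are receptor tyrosine kinases for stem cell factor, FLT3 ligand and M-CSF (or IL-34). EPOR and CSF3R act as homodimers for erythropoietin and G-CSF and signal through JAK kinases. IL3RA and CSF2RA are ligand-specific alpha chains for IL-3 and GM-CSF that signal together with a beta chain, for both of them the common one encoded by Csf2rb, and IL6ST (gp130) is the shared signalling chain for IL-6, LIF, oncostatin M and IL-11. In mouse, a near-identical neighbouring gene, Csf2rb2, encodes a beta chain that serves the IL-3 receptor but not the GM-CSF receptor.

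Levels are given as log2 signal relative to the 75th percentile of each array, so 0 is the level of that percentile, and they were compared between groups but not between probes. A gene counted as called when limma gave a Benjamini-Hochberg adjusted p under 0.05 over all genes tested and a change of at least 2-fold, and errors are standard errors (SE) from that fit. Tests covered genes seen well above background throughout 1 or more of the groups set against each other. Of the 9 receptors, 8 had a probe well above background on all 27 arrays; for Csf2rb this was the second probe, while the brightest, used for its values, was so on 25 of 27, and the brightest of Flt3 on 16 of 27. Across the arrays, the 75th percentile signal ranged from 73.2 to 636 and the share of probes above background from 46.8% to 89.6%, and replicates of a group correlated at 0.917 to 0.977. Hprt, the locus of the cassette, ranged from 0.52 to 3.47 on untreated and from 3.04 to 5.83 on DOX arrays, and was higher on every DOX array in 6 of 6 populations. The sum of 8 smooth muscle markers was 1034 to 2053 on SM and 54.4 to 267 on HP arrays, and that of 10 endothelial markers 342 to 673 on HE1 arrays. The smooth muscle arrays numbered 2 stood apart: the endothelial sum was 296 on SM replicate 2 against 26.5 to 35.0 on the others, and 515 against 36.4 in SM with DOX. Sums are of signals divided by the 75th percentile of the array.

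**Figure D1:**
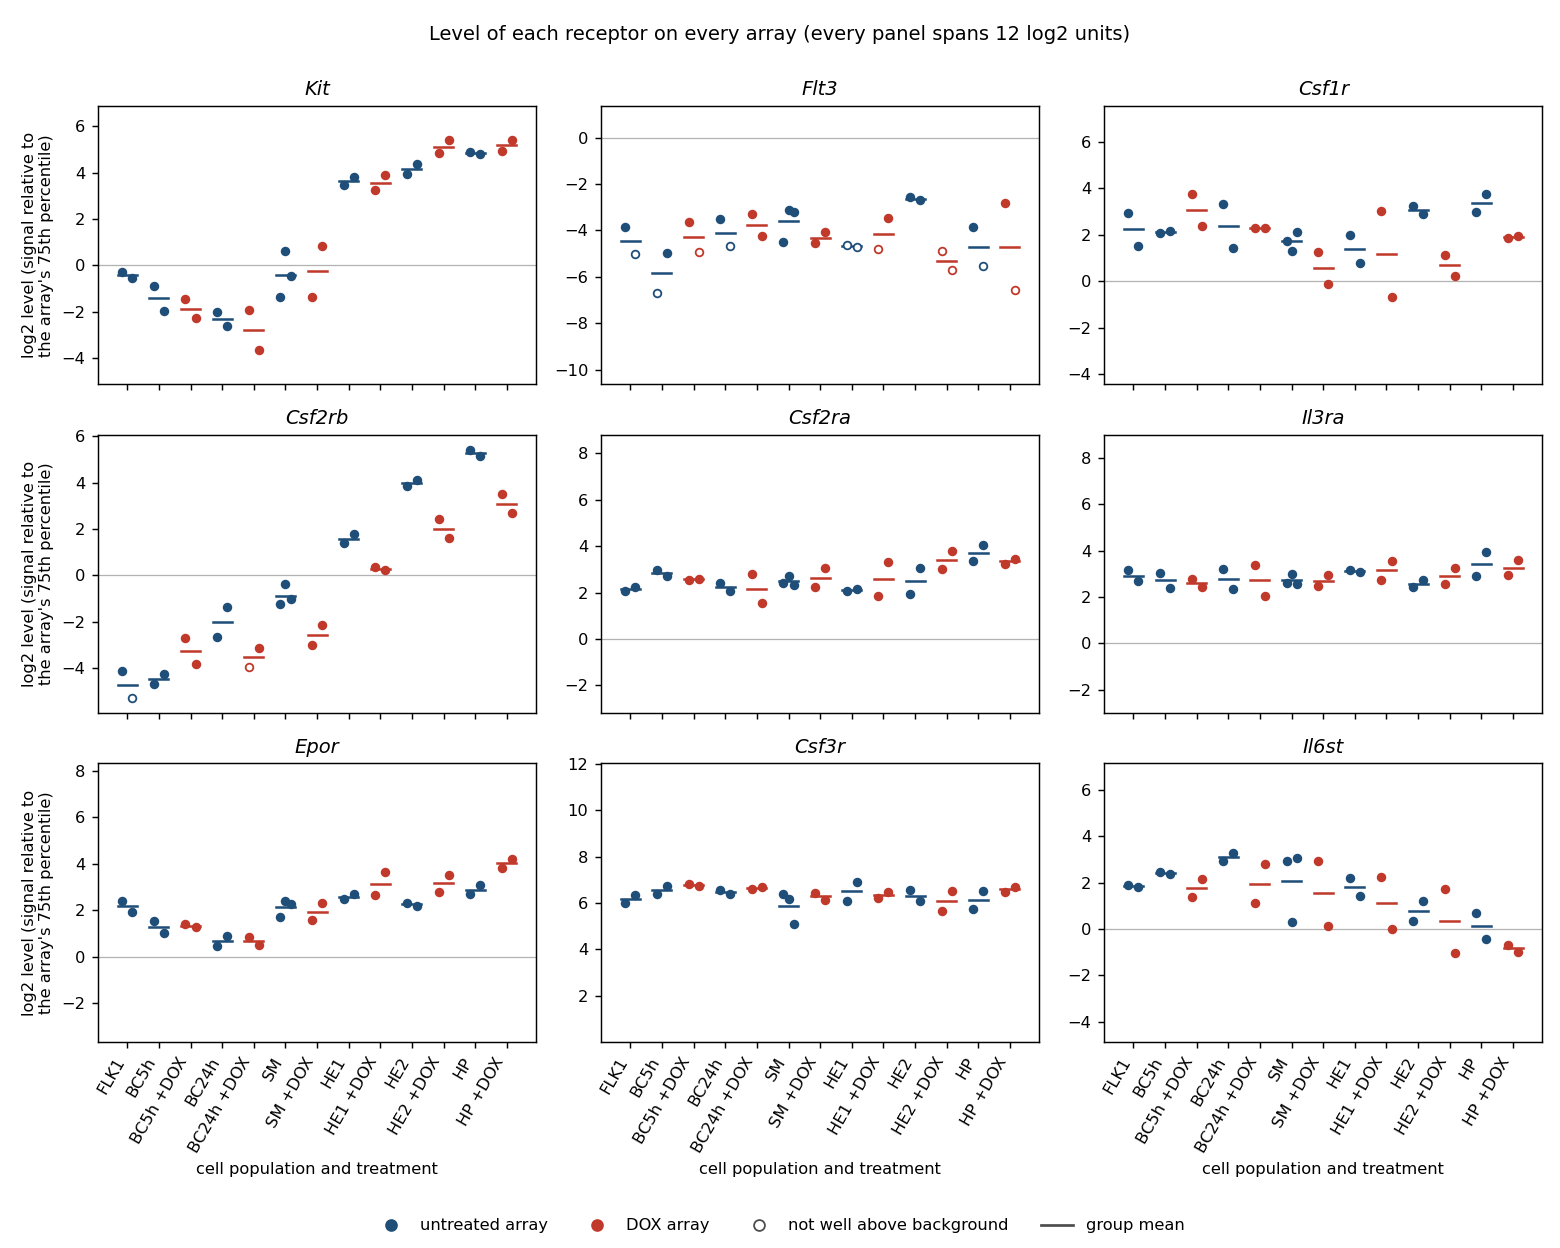
Log2 level (relative to the 75th percentile of the array) of the 9 receptors on all 27 arrays, 1 panel per receptor, each spanning 12 log2 units. Blue points are untreated and red points DOX arrays, open points were not well above background, and lines are group means; Csf2rb covers 9.98 log2 units between group means, while Il3ra covers 0.86.

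Over the untreated populations, the common beta chain gene Csf2rb ran in steps from FLK1 up to HP, and it was the receptor whose levels spread furthest. It was at -4.13 and -5.28 in FLK1 (the second not well above background) and at -4.66 and -4.26 in BC5h. In BC24h it was at -2.64 and -1.35. The smooth muscle arrays gave -1.24, -0.38 and -1.02, and the HE1 arrays 1.41 and 1.76. In HE2 Csf2rb reached 3.85 and 4.13, and in HP 5.41 and 5.14. The untreated groups did not overlap from BC5h onward, in the order of BC5h, BC24h, SM, HE1, HE2 and HP. This is an order of levels, as the study describes SM and hemogenic endothelium as arising separately. BC24h was unsorted culture, described there as mainly SM beside HE1 and HE2. Between it and sorted cells, enrichment of a cell type and more RNA per cell cannot be told apart.

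From BC5h to BC24h Csf2rb rose by 2.46 ± 0.60 (adjusted p = 0.0442), and it was the only receptor called of 8 tested, where 0.555% of all genes were called higher. From BC24h to HE1 it rose by 3.58 ± 0.60 (adjusted p = 0.00274), where 3 of 8 receptors were called, all higher, against 1.83% of all genes. HE1 was above SM by 2.47 ± 0.54 (adjusted p = 0.0474; 2 of 9 receptors called higher, against 0.226% of all genes). Among the called receptors here, and in the other comparisons with cells not selected as KIT+, is Kit, whose level the gate bears on, so that nothing is read from its share. From HE1 to HE2 Csf2rb rose by 2.40 ± 0.60 (adjusted p = 0.0373), again as the only receptor called, of 9 tested, with 0.529% of all genes called higher. The last step, from HE2 to HP, was 1.29 (adjusted p = 0.819) and was not called. There, limma called 0 of 9 receptors against a background of 0.00394%, and 3 had an unadjusted p under 0.05, as did 6.05% of all genes. Of these, 1 was Flt3 (lower in HP), which passed the filter there only through HE2.

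Over the longer distances, HP exceeded HE1 by 3.69 ± 0.60 (12.9-fold, adjusted p = 0.000919), as the only receptor called of 8, with 1.7% of all genes called higher. HP exceeded SM by 6.16 ± 0.54, or 71.3-fold (adjusted p = 1.59e-06), with 2 of 9 receptors called higher against 3.12% of all genes. Against FLK1 the difference in HP was 9.98 ± 0.60 (adjusted p = 7.70e-09), where 2 of 8 receptors were called higher and 5.79% of all genes. Csf2rb passed the filter there only through HP, and its FLK1 values lie near background, so the size of this difference is uncertain. The steps FLK1 to BC5h and BC24h to SM had 0 receptors called by limma, with 0 of 8 and 2 of 9 at an unadjusted p under 0.05 (background of calls 2.84% and 0.243%, and of unadjusted p 15% and 5.86%). When each array was left out in turn, the call for BC5h to BC24h was lost in 17 of 27 fits (value 1.82 to 3.11) and in 9 of 12 other processing settings (down to 1.04), and that for SM to HE1 in 24 of 27 (2.29 to 2.72) and in 6 of 12 settings (down to 1.57). The step HE1 to HE2 lost its call without any 1 of its own 4 arrays (2.22 to 2.57, adjusted p up to 0.253) and in 4 of 12 settings (down to 1.97, adjusted p up to 0.619). BC24h to HE1 lost it without BC24h replicate 1 (2.94, adjusted p = 0.0666) and in 2 of 12 settings (down to 2.47, adjusted p up to 0.165). The calls of HE1, SM and FLK1 against HP held in all 27 fits. Without both smooth muscle arrays numbered 2, HP exceeded SM by 6.41 ± 0.58 and HE1 exceeded SM by 2.72 ± 0.58 (adjusted p = 3.48e-06 and 0.0134).

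A second Csf2rb probe gave the same order of the late populations over a narrower span. It was at -1.46 and -0.55 in HE1, 0.75 and 0.32 in HE2 and 1.74 and 0.39 in HP, and at -2.75, -0.99 and -1.27 in SM. The probes correlated at r = 0.893 over 27 arrays that share their scaling. Fitted by probe, this one was 3.62 higher in HP than in FLK1 (adjusted p = 0.00162) and 2.74 higher than in SM (adjusted p = 0.0086), and was called in no other step. The brighter Csf2rb2 probe followed the same course, with 0.26 and 0.65 in HE1, 1.21 and 2.00 in HE2 and 3.33 and 3.06 in HP, and neither FLK1 array was well above background. With this probe the level in HP was at least 190-fold that of FLK1. The other Csf2rb2 probe did not show this: both FLK1 arrays were well above background, at -1.93 and -2.88, and overlapped HE1 (-2.85 and -1.29). In HP it was at 2.22 and -0.03, and the Csf2rb2 probes correlated at 0.650 over the arrays. Because both genes are near-identical in sequence, a probe of one may also bind transcripts of the other, and their signals are uncertain to that extent.

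With DOX, Csf2rb was lower in each of the later populations. In HP it was at 3.50 and 2.68 with DOX against 5.41 and 5.14 without. In HE2 it was at 2.42 and 1.60 with DOX, against 3.85 and 4.13. HE1 with DOX gave 0.37 and 0.21 against 1.41 and 1.76. Every DOX array of HE1, HE2 and HP was below every untreated array of the same population, and so it was in SM, with -3.01 and -2.13 against -1.24, -0.38 and -1.02, and in BC24h, with -3.95 (not well above background) and -3.12 against -2.64 and -1.35. At 5 h the order was the other way, with -2.69 and -3.80 with DOX against -4.66 and -4.26.

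**Figure D2:**
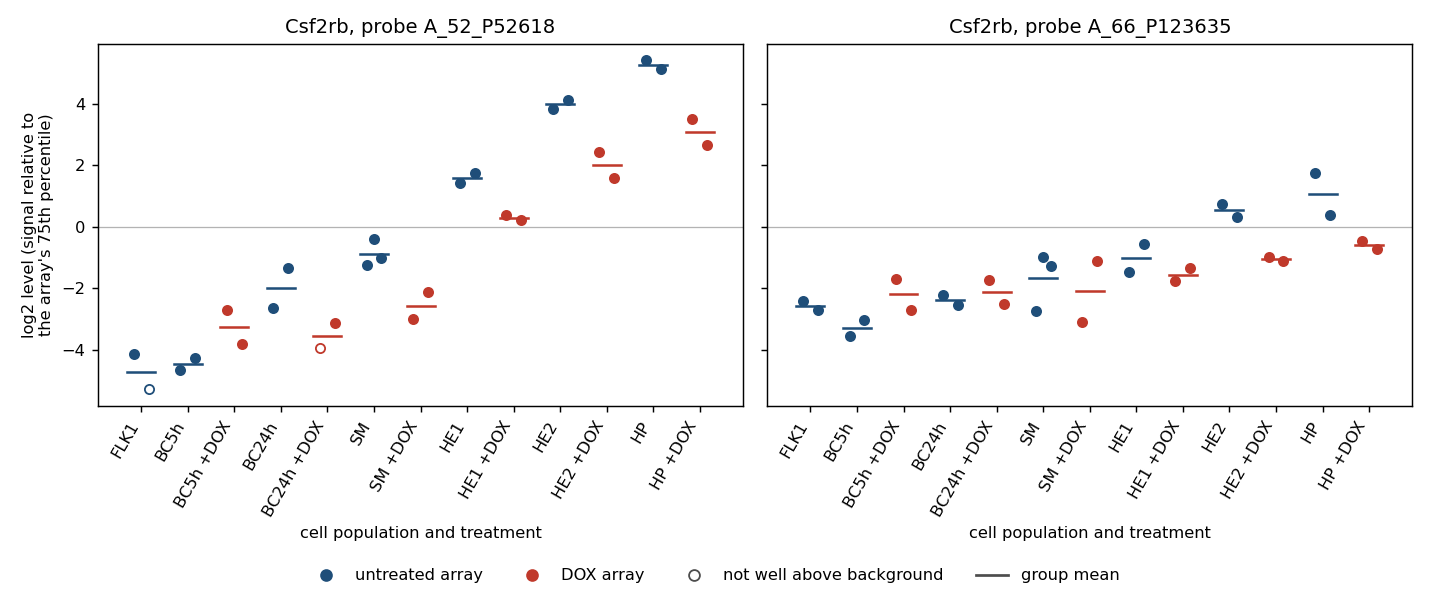
Log2 level of both Csf2rb probes on all 27 arrays by group (blue untreated, red DOX, open points not well above background, lines group means). With both probes the DOX means of HE1, HE2 and HP lie under the untreated means; in HP the first probe is at 3.50 and 2.68 with DOX and at 5.41 and 5.14 without.

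None of these decreases passed the test in a single population. The change was -2.19 ± 0.60 in HP (4.56-fold lower, unadjusted p = 0.00167, adjusted p = 0.428), -1.98 ± 0.60 in HE2 (adjusted p = 0.540), -1.30 ± 0.60 in HE1 (adjusted p = 1.000), -1.69 ± 0.54 in SM (adjusted p = 0.999) and -1.54 ± 0.60 in BC24h (adjusted p = 1.000). At BC5h it was 1.22 ± 0.60 (adjusted p = 0.994). Of all genes, 0.0398% were called with DOX in HP, 0.0084% in SM, 0.00421% in BC5h and 0% in each of BC24h, HE1 and HE2, and limma called 0 of the 8 or 9 receptors tested in each. At an unadjusted p under 0.05 stood 0 receptors in BC5h, 1 in each of BC24h, SM and HE1, 3 in HE2 and 2 in HP, beside 4.99%, 1.44%, 2.58%, 1.14%, 8.92% and 3.5% of all genes. Of the 3 in HE2, 1 was Flt3, which passed the filter there only through untreated HE2. The 1 in BC24h was Csf2rb, which passed it there only through untreated BC24h. Between same-numbered arrays that shared a slide, Csf2rb was lower with DOX in 10 of 11 pairs and in 8 of 8 pairs of SM, HE1, HE2 and HP, by 1.04 to 2.53 in the latter. The second Csf2rb probe was lower in the same 8 but higher in BC5h (0.35) and in both BC24h pairs (0.49 and 0.02), so that it did not show the BC24h decrease. Averaged over SM, HE1, HE2 and HP, a contrast added after the single-population values were seen, the change was -1.79 ± 0.29 (3.45-fold lower, unadjusted p = 7.58e-06, adjusted p = 0.00895). In this average 1 of 9 receptors was called, lower, against 0.241% of all genes, and Csf2rb2 was lower too, by -1.59 ± 0.28 (adjusted p = 0.0171). When arrays were scaled to the median instead, Csf2rb in the average missed the threshold (adjusted p = 0.0507), and without both smooth muscle arrays numbered 2 it was -1.84 ± 0.31 (adjusted p = 0.0182) and the SM difference -1.88. The second Csf2rb probe gave -1.05 (adjusted p = 0.308 by probe).

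These are bulk samples, in which fewer cells of a type and less RNA per cell cannot be told apart. Markers of macrophages and granulocytes are given beside these values, and limma called none of them with DOX in any single population. In the mean over SM, HE1, HE2 and HP, where Csf2rb was called, 13 of 14 were lower (median -1.28 against 0.07 for all genes) and 1, Tyrobp, was called lower. The summed level of 15 such genes, 1 of them Csf1r, was 200 to 221 in HP and 139 to 188 in HP with DOX, 71.0 to 162 and 73.9 to 98.1 in HE2 (overlapping, and higher with DOX in the pair numbered 2), 53.1 to 78.4 and 34.8 to 55.2 in HE1 (overlapping, and higher with DOX in the pair numbered 1), and 23.3 to 42.0 and 13.7 to 16.8 in SM, and 14 were above background on every HP array. With DOX in HP, 11 of the 14 tested were lower, with a median of -1.57 against 0.25 for all genes, and in HE2 11 of 13 were lower, with a median of -1.25 against 0.17. In HE1 7 of 9 were lower, with a median of -0.30 against 0.09, and in SM 5 of 9 were lower and 4 higher. Markers of megakaryocytes and mast cells were summed as well. The summed level of 7 megakaryocyte markers was 21.0 to 35.5 in HE2 and 42.8 to 57.4 with DOX (4 of 6 tested higher, median 0.60), and that of 8 mast cell markers was 4.88 to 7.47 and 7.74 to 12.4 (4 of 4 higher, median 0.79), with none called. Spi1, the gene of the myeloid transcription factor PU.1, changed by -3.19 in HP (adjusted p = 0.548) and Ptprc, the gene of the leukocyte surface protein CD45, by -3.21 (adjusted p = 0.243). The part of all these markers in the Csf2rb values was not tested.

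**Figure D3:**
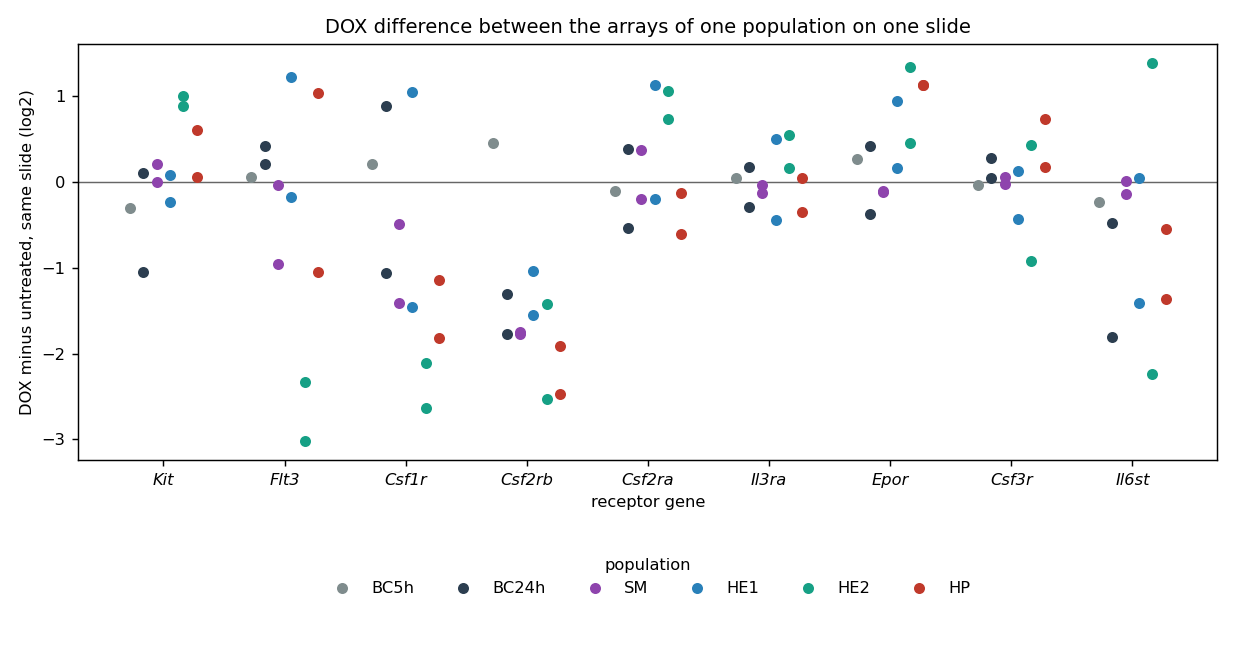
Log2 difference, DOX minus untreated, between same-numbered arrays that shared a slide (11 pairs), for the brightest probe of each receptor, by population. Zero means no difference; Csf2rb lies under 0 in 10 of 11 pairs, and the alpha chains Csf2ra and Il3ra lie on both sides of 0.

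With DOX, the progenitors still exceeded the first hemogenic endothelium and the smooth muscle cells in Csf2rb. HP exceeded HE1 by 2.80 ± 0.60 with DOX (adjusted p = 0.0109; 1 of 8 receptors called, higher, against 0.929% of all genes), and SM by 5.66 ± 0.60 (adjusted p = 2.01e-05; 3 of 9 called higher, against 1.97%). The first of these was lost without either HE1_DOX array or HP_DOX replicate 1 (2.38 at the lowest, adjusted p up to 0.180) and in 2 of 12 settings (down to 1.88). The Csf2rb difference was 1.72 from HE1 to HE2 (adjusted p = 0.248) and -0.29 from BC5h to BC24h, both with DOX. No other step with DOX had a called receptor: limma gave 0 of 9 from BC5h to BC24h, 0 of 9 from SM to HE1, 0 of 8 from HE1 to HE2 and 0 of 8 from HE2 to HP (backgrounds 1.4%, 0.0864%, 1.35% and 0%), with 0, 3, 1 and 0 at an unadjusted p under 0.05 (8%, 7.05%, 8.21% and 2.74% of all genes). Sorted by mean, Csf2rb ran from FLK1 through BC5h, BC24h with DOX, BC5h with DOX, SM with DOX, BC24h, SM, HE1 with DOX, HE1, HE2 with DOX, HP with DOX and HE2 to HP. Of the 12 neighbour gaps, 3 had a 95% interval without 0: SM to HE1 with DOX, HE1 with DOX to HE1, and HE2 to HP. Whether the DOX effect differed between populations was tested in 10 pairs of populations for each receptor, and limma called none, with 0% of all genes called in each. At an unadjusted p under 0.05 stood only Flt3, in 2 pairs with HE2, whose DOX arrays were not well above background for it, so nothing is read from it. Effects at BC5h were in none of these pairs. In simulated data with known changes, the test of HP minus BC24h called 0 of 50 changes of 2 log2 units and 5 of 50 of 3. A missing call therefore does not show that the DOX effects were alike.

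Neither ligand-specific alpha chain that pairs with it was called. Csf2ra was between 1.54 and 4.07 on all arrays (median 2.60). It was at 3.36 and 4.07 in HP, against 2.07 and 2.25 in FLK1 and 2.06 and 2.17 in HE1. Although these arrays did not overlap, the difference was not called, with 1.55 ± 0.57 from FLK1 to HP (adjusted p = 0.0953) and 1.60 from HE1 to HP (adjusted p = 0.152). On the value table deposited by the authors, both passed the threshold, with adjusted p = 0.00312 and 0.015. Il3ra stayed between 2.05 and 3.94 on all arrays (median 2.90), and its group means spanned 0.86. In the same-slide pairs of SM, HE1, HE2 and HP, each alpha chain was lower with DOX in 4 of 8. With DOX in HP, Csf2ra changed by -0.37 (95% interval -1.56 to 0.82) and Il3ra by -0.15 (-1.31 to 1.01).

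Il6st, the gp130 chain, was at its highest mean in BC24h and lower in the blood populations, though no step was called. It was at 1.90 and 1.83 in FLK1, 2.45 and 2.38 in BC5h and 2.92 and 3.28 in BC24h. Later it was at 2.20 and 1.41 in HE1, 0.35 and 1.23 in HE2 and 0.68 and -0.45 in HP. All HP arrays were under all HE1 arrays. From FLK1 to HP the difference was -1.75 ± 1.06 (adjusted p = 0.364). In same-slide pairs it was lower with DOX in 8 of 11. In SM, replicate 2 was at 0.29 while the others were at 2.92 and 3.07, and with DOX replicate 2 was at 0.14 and replicate 1 at 2.93. The replicate 2 arrays of HE1 with DOX (0.00 against 2.25) and HE2 with DOX (-1.01 against 1.74) were also low, and these arrays shared 1 slide, whose part in the values was not tested.

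Among the homodimeric receptors, Epor was lower in BC5h and BC24h than in FLK1 and higher again in both SM and HE1, while the Csf3r signal was level. Epor was at 2.38 and 1.94 in FLK1, 1.55 and 1.01 in BC5h and 0.44 and 0.89 in BC24h. It was at 2.49 and 2.68 in HE1, 2.33 and 2.20 in HE2 and 2.70 and 3.08 in HP. The HE1 arrays were thus both above the BC24h arrays, by 1.92 ± 0.48 on average (3.78-fold, adjusted p = 0.0336), and this call was lost without any 1 of these 4 arrays (1.70 to 2.14, adjusted p up to 0.207) and in 4 of 12 other processing settings (down to 1.19, adjusted p up to 0.286). SM gave 1.69, 2.40 and 2.26, all above the BC24h arrays too, though that step was not called. Nor was the difference between HP and SM called without DOX.

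In HP and HE2, Epor lay higher with DOX. It was at 3.83 and 4.20 with DOX, against 2.70 and 3.08 without, and at 2.78 and 3.54 against 2.33 and 2.20 in HE2. DOX arrays were above untreated arrays in both, by 1.13 ± 0.48 in HP (unadjusted p = 0.0299, adjusted p = 0.999) and 0.89 ± 0.48 in HE2 (adjusted p = 0.540), and on each of the HP slide pairs the difference was 1.13. Counted over receptors, all DOX values exceeded all untreated values for 2 of 8 in HP and 2 of 9 in HE2, against 25.7% and 20.4% of all genes, for 0 in SM and HE1 (4.48% and 8.74%), for 1 of 9 in BC24h (18.4%) and for 2 of 8 in BC5h (18.6%). Every DOX array was lower for 3 receptors in HP and 3 in HE2, against 12.5% and 14.4%, 2 in SM (6.03%), 1 in HE1 (8.33%), 2 in BC24h (9.8%) and 2 in BC5h (16.4%). Flt3 in HE2 and Csf2rb in BC24h are among these and passed the filter only through the untreated group, so nothing is read from these counts. With DOX, Epor in HP exceeded SM by 2.08 ± 0.48 (adjusted p = 0.0112), a call lost without either HP_DOX array or SM_DOX replicate 1 (1.73 to 2.27, adjusted p up to 0.136) and in 2 of 12 settings (down to 1.78, adjusted p up to 0.272). The summed level of 11 erythroid markers, which include Epor, was 249 to 370 in HP and 378 to 382 in HP with DOX, and 9 of 10 tested were higher there, none of them called, beside 17091 of 25126 of all genes; on SM replicates 1 to 3 it was 556, 80.1 and 390, and on SM with DOX 206 and 69.4, with 9 of 11 lower with DOX there (median -0.95) and none called. The part of these markers in the Epor values was not tested. Csf3r stayed between 5.10 and 6.92 on all arrays (median 6.44), with group means spanning 0.87, and with DOX in HP it changed by 0.45 (-0.61 to 1.52). Its only probe was bright in every group, FLK1 and SM included, with a processed signal of 6854 to 68490. Whether that signal is specific to Csf3r RNA was not tested.

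Of the receptor tyrosine kinases, Kit followed the gates. It was between -2.60 and -0.28 in FLK1, BC5h and BC24h without DOX and at -1.38, 0.64 and -0.45 in SM. In the KIT+ populations it was at 3.47 and 3.83 in HE1, 3.94 and 4.39 in HE2 and 4.89 and 4.80 in HP. Since KIT protein selected these cells, the difference to cells not selected as KIT+ (5.95 from BC24h to HE1 and 5.26 from FLK1 to HP) is a description of the sort. Among the KIT+ groups, HP arrays were above HE1 arrays, and no step was called. With DOX, Kit was at 4.83 and 5.39 in HE2 and 4.94 and 5.40 in HP, above each untreated array, by 0.95 (adjusted p = 0.585) and 0.33 (adjusted p = 0.999). It was higher with DOX in 7 of 8 same-slide pairs of SM, HE1, HE2 and HP.

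Csf1r, the M-CSF receptor of macrophages, had 3 probes that disagreed. The brightest (A_55_P2025078) was at 2.99 and 3.77 in HP and 3.26 and 2.88 in HE2, against 2.00 and 0.80 in HE1 and 1.75, 1.30 and 2.11 in SM. It was also at 2.93 and 1.54 in FLK1 and at 3.35 and 1.42 in BC24h, so that BC24h overlapped HP, while FLK1 and BC5h (2.06 and 2.17) lay under it. A_52_P602091 was at -0.73 and -1.36 in HP, -0.46 and -2.40 in HE1 and -2.91 and -4.13 in FLK1 (the last not well above background), and its HE2 arrays lay apart, at 2.15 and -1.50. The third probe (A_55_P2025073) stayed between -1.52 and 0.46 on all 27 arrays. Over the arrays the first 2 correlated at 0.513, and the third with them at 0.029 and -0.306. No probe was called in any step. Taken for each of the first 2 probes, the largest difference between untreated groups was 2.47 ± 0.99 from FLK1 to HP with A_52_P602091 (adjusted p = 0.141 by probe) and 1.98 ± 0.93 from HE1 to HP with A_55_P2025078 (adjusted p = 0.369 by probe).

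With DOX, the brightest Csf1r probe was at 1.15 and 0.25 in HE2 and at 1.84 and 1.95 in HP. These arrays were under all untreated arrays of their population, by -2.37 ± 0.93 in HE2 (unadjusted p = 0.0196, adjusted p = 0.540) and -1.48 ± 0.93 in HP (adjusted p = 0.999). In SM it was at 1.25 and -0.11 with DOX, a difference of -1.15 ± 0.85 (adjusted p = 0.999), which ran from -1.83 to -0.47 with 1 array left out and was -0.68 without both SM arrays numbered 2. A_52_P602091 was at -3.32 and -4.15 in HE2 with DOX and at -2.23 and -3.77 in HP with DOX, a difference of -4.06 ± 0.99 in HE2 (unadjusted p = 0.001, adjusted p = 0.573 by probe) and -1.95 in HP. Its untreated HE2 arrays lay apart, and the same-slide differences in HE2 were -5.48 (replicate 1) and -2.65 (replicate 2). For A_55_P2025073 the differences were 0.34 in HE2 and 0.08 in HP. In same-slide pairs of SM, HE1, HE2 and HP, the first 2 probes were each lower with DOX in 7 of 8 and the third in 4 of 8. Averaged over these 4 populations, the brightest probe changed by -1.30 ± 0.45 (adjusted p = 0.318), which passed only without HE1 with DOX replicate 1 (-1.77, adjusted p = 0.0472). The myeloid marker values given for Csf2rb apply here as well, and their part in the Csf1r values was not tested.

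Flt3, a receptor of early lymphoid and myeloid progenitors, was close to background throughout. Its brighter probe was at -2.57 and -2.70 in HE2, both well above background. With DOX the HE2 arrays were at -4.90 and -5.72 and not well above background. On this scaling HE2 was at least 4.38-fold lower with DOX (measured difference -2.68, adjusted p = 0.540). The bound depends on the background correction: the difference was -0.88 with normexp and -0.99 in the authors' processed values, both under that bound, and -1.36 for the mean of both probes. On the other arrays it lay between -6.72 and -2.84. The second Flt3 probe was above background on 6 of 27 arrays, none of them HE2, with means of -5.19 in HE2 and -5.22 with DOX, and the probes correlated at 0.237.

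The likeness of other genes was measured as Pearson r of the 13 group means over 16377 genes, as a description. Csf2rb was most like Csf2rb2 (0.991), Fermt3 (0.985), which encodes the integrin activator kindlin-3 of blood cells, and Hcls1 (0.984), which encodes a hematopoietic cortactin relative. Kit was most like Coro7 (0.984), Hif3a (0.981) and Mfng (0.980). Epor was most like Pdk2 (0.978), Cnppd1 (0.963) and Acd (0.955), and Il6st most like Tcaf1 (0.977), Pcgf3 (0.972) and Dst (0.967). Between receptors, Csf2rb and Kit correlated at 0.895, Csf2rb and Epor at 0.706 and Csf2rb and Il6st at -0.752.

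Among other genes of the pathway, receptors, ligands and signalling genes were called between populations. Of 25 other cytokine receptors tested from SM to HP, 6 were called higher and 2 lower, against 3.12% and 6.21% of all genes. Il1rl1, the IL-33 receptor, was higher by 5.56, Csf2rb2 by 4.87, Il6ra (the IL-6 alpha chain, which pairs with gp130) by 4.64, Il2rg (the common gamma chain) by 4.38 and Il10ra by 4.25. Lifr, the LIF receptor chain that also pairs with gp130, changed by -2.31. Il6ra already rose by 3.30 from HE1 to HE2, and Lifr changed by -3.19 there. Among 11 ligands tested, Flt3l was higher in HP than in SM by 3.50, while Csf1 and Kitl, the genes of M-CSF and stem cell factor, changed by -3.94 and -3.71. From FLK1 to BC5h, Csf1 and Il11, the gene of a cytokine that signals through gp130, rose by 2.93 and 3.82, and Il34, the gene of the other CSF1R ligand, also rose (adjusted p = 0.0421).

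Downstream of the receptors, 2 of 9 JAK and STAT genes tested were called higher in HP than in SM, where 3.12% of all genes were: Jak3, the kinase that binds the common gamma chain, by 3.79 and Stat5a by 2.36. Against the same share, 6 of 16 other signal transducers were higher, with Vav1 (a guanine nucleotide exchange factor of blood cells) at 6.44, the kinase Btk at 5.36 and the phospholipase Plcg2 at 5.18. Of 14 feedback inhibitors, 3 were higher: the lipid phosphatase gene Inpp5d (5.15), the adaptor gene Dok2 (4.78) and the tyrosine phosphatase gene Ptpn6 (3.92). With DOX, limma called 0 genes of these lists in any single population. In HP with DOX, 14 of 16 signal transducers lay under 0, with a median of -0.52 against 0.25 for all genes, and 17 of 25 other receptors did, with a median of -0.58. On the same arrays 11 of 14 macrophage and granulocyte markers were lower (median -1.57), and their part in these lists was not tested. The JAK and STAT genes (6 higher, 3 lower, median 0.16) and the ligands (7 higher, 3 lower, median 0.43) lay close to all genes, of which 17091 of 25126 were higher. The feedback inhibitors were split (6 higher, 8 lower), and in HE2 the signal transducers were 9 higher and 7 lower. The largest DOX differences in HP within these lists were -2.18 for Csf2rb2 and -2.13 for Il1r1, -1.40 for Il11 and 1.08 for Kitl, -1.89 for Tyk2 and -0.89 for Stat6, -2.42 for Btk and -2.20 for Fes, and -0.98 for Ptpn6 and -0.95 for Dok1.

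Because dnFOS acts on AP-1, and TEAD, GATA and RUNX factors act in the same cells, the 250 bases before each gene's start were searched on both strands for short words that these factors bind. The AP-1 word was TGANTCA. For TEAD factors the word searched was GGAATG, and for RUNX factors TGTGGT. For GATA factors either of the words AGATAA and, with its first letter changed, TGATAA counted as a match, and the words do not overlap one another in these windows. The RefSeq table (GRCm38.p6) held windows for 7 of the 9 receptors, so that Csf2rb and Csf1r were not searched, and with Csf2rb2 and a second Kit start 9 windows were searched. TGANTCA was in 0 of these 9 and in 6.75% of 32851 windows. GGAATG was in that of Csf2rb2 only (12.6% of all windows), the GATA words in Epor and Csf2rb2 (16.6%) and TGTGGT in Epor (14%). The Epor and Csf2rb2 windows are printed as those that hold a match, 5′ to 3′ on the coding strand, with matches in capitals. Epor (chr9:21963577-21963826, minus strand) has the RUNX word from 166 bases and the GATA word from 54 bases before the start, and Csf2rb2 (chr15:78305722-78305971, minus strand) has the TEAD word from 128 and the GATA word from 38 bases before it, each on the opposite strand. A match is a word in the sequence and was not tested for binding.
Epor: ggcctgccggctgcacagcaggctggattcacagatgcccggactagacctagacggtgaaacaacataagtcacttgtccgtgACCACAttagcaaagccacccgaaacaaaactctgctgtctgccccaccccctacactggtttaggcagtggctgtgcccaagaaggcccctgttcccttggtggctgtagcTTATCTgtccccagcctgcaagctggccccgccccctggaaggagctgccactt
Csf2rb2: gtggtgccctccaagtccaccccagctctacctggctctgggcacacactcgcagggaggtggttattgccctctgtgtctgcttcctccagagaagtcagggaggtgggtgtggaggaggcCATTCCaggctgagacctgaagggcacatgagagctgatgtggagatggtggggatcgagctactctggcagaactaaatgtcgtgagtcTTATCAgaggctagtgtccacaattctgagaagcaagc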

How the data were processed

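Total RNA of 27 samples in 13 groups was hybridised to 1-colour mouse gene expression arrays with 62976 spots. The authors scanned the arrays and deposited Feature Extraction tables, whose processed signal is a background-corrected intensity, not scaled between arrays. File headers give version 10.7.3.1 and the submitters' processing notes 10.7.1.1. The value table deposited by the authors holds log2 values of the same arrays, and 27 of 27 of its columns correlated best with their own array. Its column medians lie between 5.98 and 6.00, its scaling is not stated, and it was used as an alternative. Nothing in either kind of file gives a read depth; the number of arrays limits the precision.

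From the processed signal, control and outlier spots were left out, spots of a probe averaged, and log2 taken and reduced by the 75th percentile of the array. For each gene the probe with the highest mean was kept, and every probe of a receptor is reported. Groups were taken from the sample titles and compared with limma 3.58.1 in R 4.3.3, with 1 mean per group over all arrays (14 residual degrees of freedom) and Benjamini-Hochberg adjustment within each comparison. Where a group was nowhere above background, the fold is a lower bound, from the lowest signal well above background on each array or the probe's own, whichever was higher. The scripts were tested on simulated data, where the test of DOX in HP called 5 of 50 known changes of 2 log2 units and 26 of 50 of 3. Figures were drawn with matplotlib 3.10.9.

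The arrays lay on 5 slides, and DOX differences were also taken within slides. Replicate numbers were not taken as pairs: labels do not say that they are, and deviations of same-numbered arrays correlated at -0.149 in BC5h and at 0.260 to 0.609 elsewhere. Alternatives were the authors' values, other scalings and background corrections, no filter on dim probes, the mean of all probes of a gene, other thresholds, slide or replicate as a block, the groups of a comparison alone, and each array left out. The receptors and pathway lists were chosen with earlier results of these data known. All receptors and all their probes are named, the called genes of each list (a few of them are not reported here), the largest 2 DOX changes in HP of a list with none called, and for the likeness the 3 genes with the highest r.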

Additional observations from a re-analysis of the deposited data

Results flagged for a closer look

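At 5 h of blast culture, Csf2rb and the brightest Csf1r probe were higher on every DOX array than on every untreated array, while in some later populations every DOX array was lower. Csf2rb was 1.22 higher with DOX in BC5h on the log2 scale, and differed by -1.54 after 1 day, -1.69 in the smooth muscle cells, -1.30 in the first and -1.98 in the second hemogenic endothelium, and -2.19 among the progenitors. Csf1r (brightest probe) was 0.96 higher in BC5h, at 3.77 and 2.38 with DOX against 2.06 and 2.17, so that most of this came from replicate 1. It differed by -1.15 in SM, -2.37 in HE2 and -1.48 in HP. In BC24h and HE1 its arrays overlapped (-0.09 and -0.21). In BC5h the other Csf1r probes overlapped: A_52_P602091 was at -1.61 and -1.83 with DOX against -1.82 and -1.45, and A_55_P2025073 at -0.15 and -0.06 against -1.52 and 0.08. Over 12 other settings the Csf2rb difference went down to 0.14 in BC5h and to -0.64 in BC24h, and with 1 array left out it ran from 0.66 to 1.77 and from -2.19 to -0.89. The Csf1r difference in SM ran from -1.83 to -0.47 with 1 array left out and was -0.68 without both SM arrays numbered 2. The difference between BC5h and the other populations was not tested, and DOX was given for 5 h in BC5h, 1 day in BC24h and 2 days in the later ones. The untreated BC5h replicate 1 was alone on its slide. On the slide with both conditions (replicate 2), the DOX difference in BC5h was 0.46 for Csf2rb and 0.21 for Csf1r.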

How the results depend on the processing

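No called receptor difference changed sign under any alternative, and of 276 differences of receptors between groups, called or not, 235 (scaling to the median) to 276 kept their direction. With DOX, the count of called receptors stayed at 0 in every alternative except the authors' processed values, which called 1 (Csf2rb in HP, -2.38, adjusted p = 0.0302), and at 0 in all 27 fits that left out 1 array; tests of a differing DOX effect called 0 throughout. Between untreated populations, 12 calls became 5 with the groups of the contrast alone, 8 to 15 in the other settings (15 with the authors' values), and 7 to 12 with 1 array left out (7 without HE1 replicate 2). Between DOX populations, 4 calls became 7 with the authors' values, 7 with slide as a fixed block, 2 with the groups of the contrast alone, 7 with the SM and SM_DOX arrays numbered 2 left out together (an alternative added after seeing the data), and 2 to 6 with 1 array left out (2 without HP_DOX replicate 1). The mean DOX effect, also added after seeing the data, gave 1 call, 0 with scaling to the median and 1 to 2 with 1 array left out. With the replicate number as a block, the calls were 0 with DOX, 9 between untreated and 4 between DOX populations and 1 in the mean DOX effect, without the numbers being known to pair samples. The Csf2rb difference with DOX in HP kept its direction in all settings. Flt3 was often not above background, where its values are bounds.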
